A study of Mus musculus with 8 samples.

Results

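The 10 solute carriers described here move amino acids and small peptides across the wall of the small intestine, and were measured in mice that lack the transcription factor Pdx1 in the gut epithelium. The genes were Slc15a1, Slc6a19, Slc1a1, Slc3a1, Slc7a9, Slc6a20a, Slc7a7, Slc7a8, Slc43a2 and Slc38a5, chosen by name. They were read by every probe set of an Affymetrix array that the platform annotation gives 1 of these symbols and no other. All 10 of 10 genes were measured, by 16 probe sets of the 45037 tested, which cover 18193 named genes. The study asked which transcripts of the mature duodenum depend on Pdx1, a homeodomain factor of duodenum and pancreas.

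The knockout group was 4 Pdx1flox/flox;VilCre mice, in which Cre driven by a 12.4 kb fragment of the villin 1 promoter removes exon 2 of Pdx1 in gut epithelium. The control group was 4 littermates of genotype Pdx1flox/flox, which carry the same loxP-flanked alleles without Cre. All 8 were males aged 6 months on a diet with 4.5% fat, and the sample was the 5 cm of intestine next to the stomach. The villin promoter confines the deletion to epithelial cells, while each array read the whole gut wall, including its muscle and nerves and tissue left attached to it. In such bulk tissue, fewer cells of a type and less RNA per cell cannot be told apart.

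Dietary protein reaches the enterocyte as small peptides and free amino acids. The apical brush border membrane takes them up: Slc15a1 carries peptides with protons, and a set of sodium-coupled carriers and exchangers takes free amino acids. Exchangers and a uniporter in the basolateral membrane then pass amino acids on to the blood. Several of these carriers work only with a partner subunit, and inherited loss of some of them in people causes aminoacidurias such as cystinuria and Hartnup disorder.

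None of the 16 probe sets passed the test between knockout and control. The intervals and p-values come from limma, adjusted over all 45037 probe sets by the Benjamini-Hochberg method, with an adjusted p under 0.05 counted as changed. By that rule 0.0422% of all probe sets changed, 0 of them among the transporters, whose adjusted p-values lay between 0.502 and 0.981. The unadjusted p was under 0.05 for 9 of the 16, 8 higher and 1 lower, against 7.13% of all probe sets. That count was 5 without control 2, 4 without control 2 and knockout 3 together, and 3 with the level of epithelial genes subtracted from each array. It was 11 without control 1, 10 with the level of exocrine pancreas genes as a covariate, and 6 to 9 in the remaining settings. The 7.13% belongs to the main comparison only. In 15 of 16 probe sets the change was above 0 on the log2 scale, against 50.0% of all probe sets and 58.4% of those whose mean reached the array median, as all 16 did. The median change was 0.22 over the 16, 0.021 over all probe sets whose mean reached the array median, and 4.8e-05 over all probe sets. That the 10 genes were picked by name does not make the probe sets separate observations: probe sets of 1 gene read the same transcript and the genes share their samples, so these counts are a description.

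Pdx1, the deleted gene, checked the labels. It read 5.58 to 6.18 in knockout samples and 8.16 to 8.98 in control samples on its brighter probe set (log2 change -2.59, adjusted p = 4.16e-04 in limma). Whether this probe set reads the removed exon is not given in the sources used here. Vil1, the villin gene itself, had a change of 0.19 (adjusted p = 0.660 in limma). All 12 epithelial markers were above the array median, among them the keratin Krt8. Of the 4 ileal markers, Fabp6, Slc10a2 and Osr2 lay below it and Cubn lay above it, with means of 8.23 in the knockout and 7.63 in the control. Pancreas markers differed between mice: the mean level of 16 exocrine pancreas markers ran from 12.37 to 13.35 in knockout samples and from 11.63 to 13.94 in control samples, with the lowest in control 3 and the highest in control 4. Knockout 3 and control 2 also stood apart from the rest together, as described below for Slc6a20a.

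The promoter windows of the genes the results turn on are shown first. They are the windows from 250 bases before to 50 after an annotated start, from RefSeq, build GRCm38.p6. Slc38a5 is shown because it had the largest change of the 10. Slc43a2 was added after its values were seen, because 2 of its 3 probe sets separated the groups, and it has 2 annotated starts. Capitals mark TAAT, the core that homeodomain proteins bind, on either strand, so that ATTA is TAAT on the other strand. Overlapping matches were each counted.

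Slc38a5, chrX:8271131-8271430, plus strand: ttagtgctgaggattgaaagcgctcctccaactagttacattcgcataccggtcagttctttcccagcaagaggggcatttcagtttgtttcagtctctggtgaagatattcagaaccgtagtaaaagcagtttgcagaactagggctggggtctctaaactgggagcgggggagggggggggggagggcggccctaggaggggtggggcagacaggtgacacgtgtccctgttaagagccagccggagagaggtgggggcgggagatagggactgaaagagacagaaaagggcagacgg

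Slc43a2, chr11:75531444-75531743, plus strand: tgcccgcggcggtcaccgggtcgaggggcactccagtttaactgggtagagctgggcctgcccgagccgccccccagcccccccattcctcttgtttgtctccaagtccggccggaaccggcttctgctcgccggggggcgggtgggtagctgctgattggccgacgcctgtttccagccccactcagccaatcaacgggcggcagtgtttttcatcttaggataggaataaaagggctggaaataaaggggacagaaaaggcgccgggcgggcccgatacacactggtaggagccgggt

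Slc43a2, chr11:75531862-75532161, plus strand: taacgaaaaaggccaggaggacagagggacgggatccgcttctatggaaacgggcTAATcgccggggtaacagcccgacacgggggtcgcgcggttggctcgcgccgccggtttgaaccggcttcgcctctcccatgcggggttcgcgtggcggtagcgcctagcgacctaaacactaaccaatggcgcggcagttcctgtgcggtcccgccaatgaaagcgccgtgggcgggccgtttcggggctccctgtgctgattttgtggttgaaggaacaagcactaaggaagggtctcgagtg

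The Slc38a5 window held 0 matches. The first Slc43a2 window held 0 and the second held 1. Of 32851 such mouse windows, 58.0% held at least 1, and of the 16 windows of the 10 transporters 9 did. The 16 are not separate: those of Slc7a9 overlap and hold the same matches, and some of those of Slc7a7 overlap. The most were in Slc6a20a with 5 matches and Slc3a1 with 4, numbers reached by 6.86% and 11.6% of all windows. These are letters in a window. No binding was measured here.

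Of the apical carriers, Slc15a1 had the largest log2 change. It encodes the proton-coupled carrier of di- and tripeptides, the main route of peptide uptake. Its single probe set read 10.21, 9.93, 10.17 and 10.20 in knockouts 1 to 4, against 9.997, 9.40, 9.97 and 9.21 in controls 1 to 4. Controls 2 and 4 were low, and controls 1 and 3 lay above knockout 2, so the groups overlapped. The change was 0.48 with a 95% interval of 0.11 to 0.86 (adjusted p = 0.642 in limma). The control values were more spread than the knockout values, with an SD of 0.40 against 0.13 in the knockout (n = 4 each). Knockout 2 was farther from the other knockouts than they were from each other.

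Slc6a19, the sodium-coupled carrier of neutral amino acids whose loss causes Hartnup disorder, was read by 2 probe sets. The brighter one gave 12.41, 12.29, 12.11 and 12.41 in the knockouts, against 12.14, 11.82, 12.16 and 11.97 in the controls. Knockout 3 alone fell inside the control range. Its change was 0.28, with an interval of 0.062 to 0.50 (adjusted p = 0.642 in limma). The other probe set had 0.38, with an interval of 0.12 to 0.65 (adjusted p = 0.595 in limma), and there control 1 reached into the knockout range. Both probe sets had a higher mean in the knockout, by 1.22-fold and 1.30-fold, and neither passed.

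Slc3a1 and Slc7a9 encode the 2 subunits of the exchanger for cystine and basic amino acids, which is defective in cystinuria. The heavy subunit Slc3a1 read 11.42, 11.18, 11.10 and 11.51 in the knockouts, against 11.27, 10.92, 11.18 and 10.999 in the controls. The light subunit Slc7a9 read 11.70, 11.73, 11.88 and 11.84 in the knockouts, against 11.70, 11.74, 11.54 and 11.60 in the controls. In both genes the groups overlapped. The samples were not ranked alike: knockout 3 was the lowest knockout for Slc3a1 and the highest for Slc7a9. The change was 0.21 for Slc3a1 (interval -0.035 to 0.46, adjusted p = 0.739) and 0.14 for Slc7a9 (interval -0.021 to 0.31, adjusted p = 0.737), both in limma.

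Slc1a1, the carrier of glutamate and aspartate, had the smallest change among the 10 genes. Its brightest probe set read 8.17, 8.07, 7.94 and 8.18 in the knockouts, against 8.08, 8.02, 8.12 and 8.10 in the controls. The change was 0.014, and its interval of -0.15 to 0.17 leaves room for a rise or a fall of that size. The other 2 probe sets had 0.094 and 0.098 and also overlapped. With epithelial genes subtracted, which lowers every change by the same amount, all 3 lay below 0, the lowest at -0.093.

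Slc6a20a carries proline and other imino acids. It read 11.79, 11.55, 10.79 and 11.76 in the knockouts, against 11.89, 10.51, 11.55 and 11.63 in the controls. Knockout 3 and control 2 were low and the other 6 samples lay between 11.55 and 11.89. The change was 0.078 with the widest interval of the apical carriers, -0.58 to 0.74 (adjusted p = 0.974 in limma). Without knockout 3 and control 2 together it was 0.0091, and without control 2 alone it was -0.22. Cubn, the receptor that takes up vitamin B12 bound to intrinsic factor and a marker on the ileum list, was low in the same samples, with 5.50 in knockout 3 and 5.61 in control 2, against 8.03 to 10.14 in the other knockouts and 7.84 to 8.83 in the other controls. Of the same list, Fabp6 and Osr2, both under the array median, were not lowest in these samples. In knockout 3 and control 2 Fabp6 read 3.55 and 3.54, and Osr2 read 3.93 and 3.98. The mean log2 deviation of 9 stomach markers was the highest of its group in knockout 3, at 0.036, and in control 2, at 0.48. Control 3, at 0.21, lay above knockout 3. The part of the site of sampling along the gut in the Slc6a20a values was not tested. The paralog Slc6a20b is similar in sequence, so the probes may not fully separate the pair. Its brighter probe set was lowest in knockout 3 too, at 4.50, and next lowest in control 2, at 5.23.

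**Figure D1:**
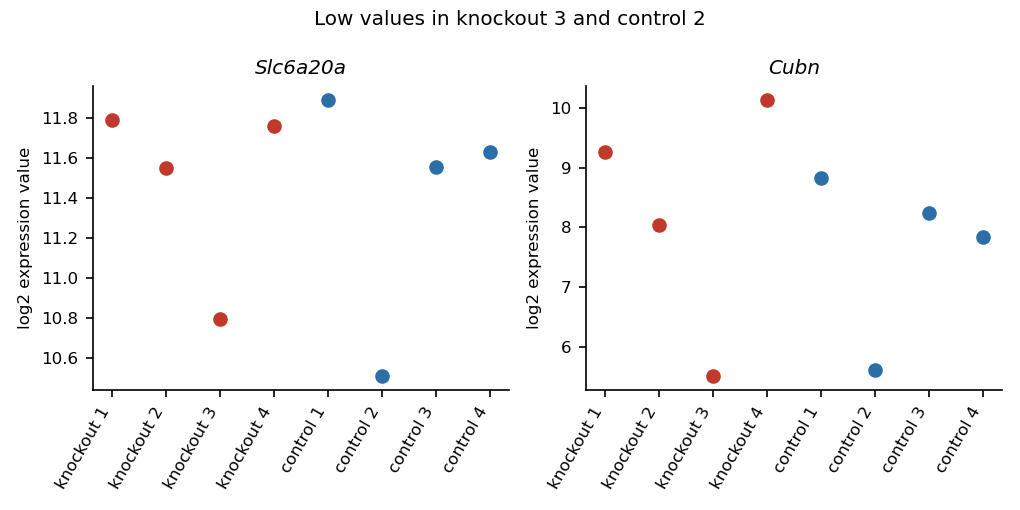
Log2 expression value (vertical axis) of Slc6a20a and of Cubn in each of the 8 samples (horizontal axis), 1 point a sample, knockout samples in red and control samples in blue. In both panels knockout 3 and control 2 lie lowest, at 10.79 and 10.51 for Slc6a20a and at 5.50 and 5.61 for Cubn.

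Taken over the 6 apical genes, all 9 probe sets had a change above 0, with a median of 0.14 and a range of 0.014 to 0.48. In none of the 9 were the groups separated. Groups that did not overlap, in either direction, made up 4.43% of all probe sets, and those separated with higher knockout values 2.10%.

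The basolateral carriers held the 3 transporter probe sets whose groups did not overlap, all higher in the knockout. Of these, 2 belonged to Slc43a2 and the other to Slc7a7. Slc43a2 is a uniporter that lets branched-chain and other large neutral amino acids leave the cell. Its brightest probe set read 12.10, 12.06, 12.04 and 11.87 in the knockouts, against 11.74, 11.49, 11.80 and 11.67 in the controls. The lowest knockout sample, number 4, lay 0.070 above the highest control sample, number 3. The change was 0.34 (1.26-fold), with an interval of 0.15 to 0.53 and the smallest adjusted p of the 16, 0.502 in limma.

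The second Slc43a2 probe set read 9.75, 9.84, 9.73 and 9.78 in the knockouts, against 9.56, 9.23, 9.70 and 9.18 in the controls. Here the knockout samples lay close together, with an SD of 0.049 against 0.25 in the control, and the gap between the groups was 0.030. The change was 0.36 (adjusted p = 0.595 in limma). The third had 0.42 (interval 0.045 to 0.79, adjusted p = 0.677 in limma), and its groups overlapped. With epithelial genes subtracted the 3 changes were 0.23, 0.25 and 0.31.

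Slc7a7 is the light subunit of the exchanger that releases basic amino acids in return for neutral ones and sodium, and its loss causes lysinuric protein intolerance. Its brighter probe set read 11.26, 11.19, 11.20 and 11.24 in the knockouts, against 11.12, 10.87, 11.12 and 10.88 in the controls. The knockouts lay just above the controls, with a gap of 0.076 between the groups. The change was 0.23 (interval 0.054 to 0.40, adjusted p = 0.629 in limma). The dimmer probe set had 0.33 (adjusted p = 0.660 in limma), with control 1 inside the knockout range.

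Slc7a8 is the light subunit of an exchanger of neutral amino acids. It read 10.15, 9.93, 10.06 and 10.08 in the knockouts, against 10.31, 9.62, 9.98 and 9.88 in the controls. Control 1 was the highest of the 8 samples and control 2 the lowest, so the controls enclosed all 4 knockouts. The change was 0.11 (interval -0.17 to 0.39, adjusted p = 0.895 in limma), and without control 2 it was -0.0018. The heavy subunit that both light subunits need is Slc3a2. Its mean was 11.85 ± 0.017 over the 4 knockouts and 11.78 ± 0.080 over the 4 controls (SD), and the change was 0.067 (adjusted p = 0.863 in limma).

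Control 2 was the lowest control sample in 8 of the 16 probe sets and control 4 in 4. The level of epithelial markers differed slightly between the arrays as well. The score of 12 epithelial markers, the mean log2 deviation of a sample from each marker's mean, ran from -0.063 to 0.18 in knockout samples and from -0.080 to -0.015 in control samples (two-sided exact permutation p = 0.0857, 0.257 after adjustment over 15 marker lists). Of these markers 11 of 12 had a change above 0. With the score subtracted from each array, 11 of the 16 transporter probe sets were above 0 and the median change was 0.11. The change was then 0.12 for the brighter Slc7a7 probe set, 0.18 for the brighter Slc6a19 probe set, 0.11 for Slc3a1, 0.035 for Slc7a9 and 0.000505 for Slc7a8. The subtraction lowers the change of every probe set by the same amount, so these shifts hold nothing particular to a transporter. The part of epithelial content in the transporter values was not tested. Of 11 smooth muscle markers, all 11 had a change above 0 and 0 passed. Their score ran from -0.10 to 0.31 in knockout samples and from -0.20 to -0.071 in control samples (two-sided exact permutation p = 0.0857, 0.257 after adjustment over 15 lists). The part of smooth muscle in the transporter values was not tested.

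**Figure D2:**
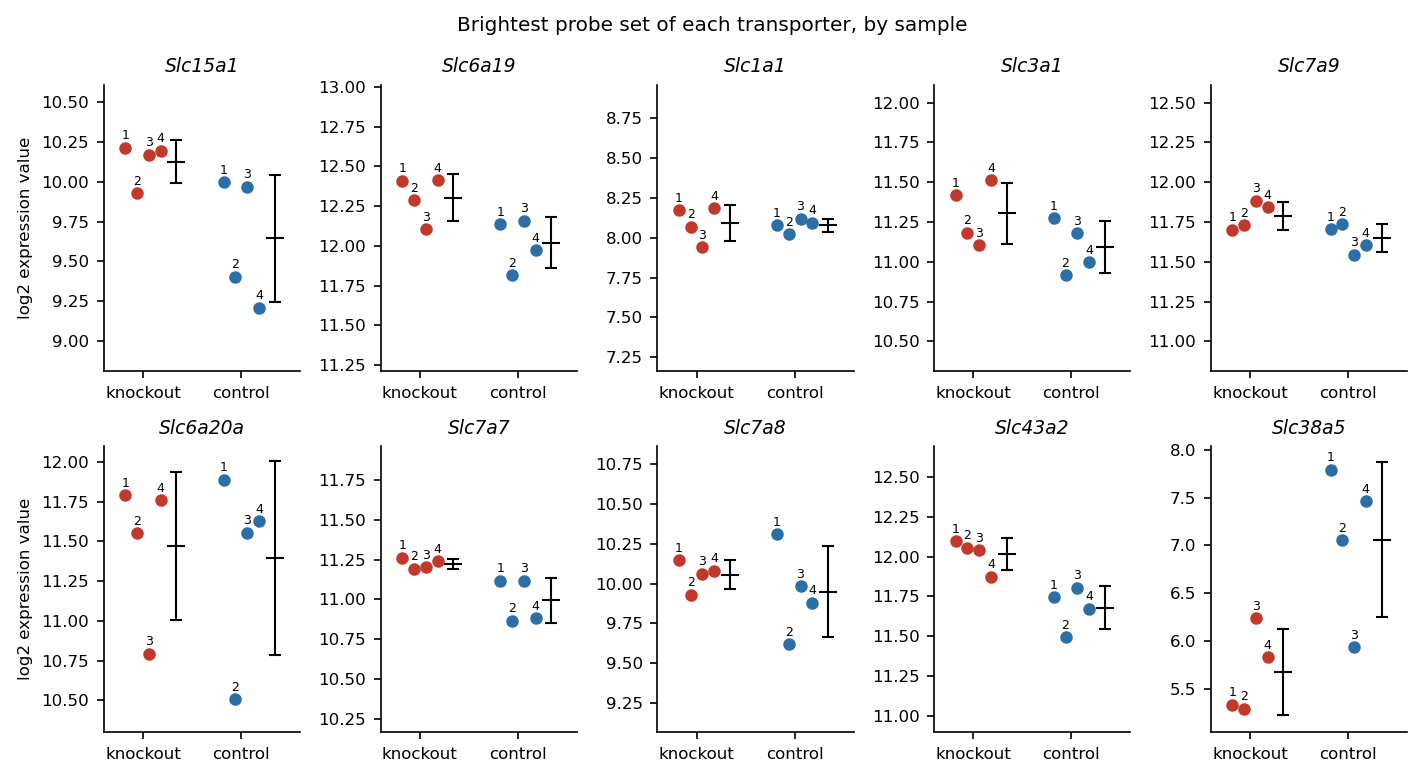
Log2 expression value (vertical axis) of the brightest probe set of each of the 10 transporters, with 1 numbered point a sample, knockout in red at the left and control in blue at the right of each panel. Bars give the mean and SD over 4 samples, and the Slc38a5 panel covers a wider span of values than the others. The groups do not overlap for Slc43a2 and Slc7a7, and knockout 3 and control 2 are low for Slc6a20a.

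**Figure D3:**
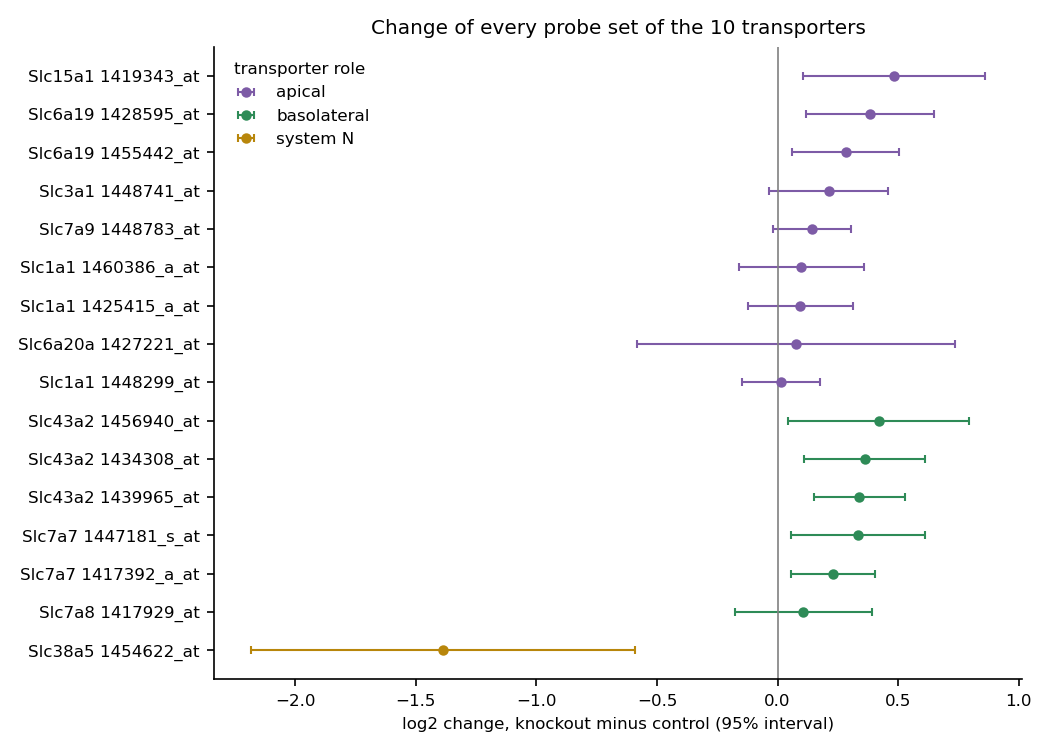
Log2 change, knockout minus control (horizontal axis), of the 16 probe sets of the 10 transporters, with 95% intervals from limma and colours for the role of the carrier. Points lie between 0.014 and 0.48 except for Slc38a5 at -1.39.

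Slc38a5 stood apart from the other 9 genes, with the only change below 0 and the largest in size. It encodes a sodium-coupled carrier of glutamine, asparagine and histidine, of the transport class called system N. Besides the gut it is known from acinar cells of the exocrine pancreas. Its probe set read 5.33, 5.29, 6.24 and 5.83 in knockouts 1 to 4, against 7.79, 7.05, 5.93 and 7.47 in controls 1 to 4. Control 3 lay below knockout 3, and the other 3 controls lay above every knockout. Knockouts 1 and 2 were close to the array medians of 5.23 to 5.27, where an unknown share of the signal is background.

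Slc38a5 averaged 5.67 ± 0.45 over the 4 knockouts and 7.06 ± 0.81 over the 4 controls (SD). Its log2 change was -1.39, or 2.62-fold lower. The interval was -2.18 to -0.59, and the adjusted p of 0.520 in limma did not pass. Its unadjusted p ranked 250 of 45037. Without control 3 the change was -1.76 and the adjusted p 0.0658, the lowest of any transporter under any setting. Over the 19 alternative settings its change ran from -1.76 to -1.09 and its adjusted p from 0.0658 to 0.864.

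Exocrine pancreas markers moved with Slc38a5 across the samples in part. Their score was -0.42, -0.49, 0.49 and -0.34 in knockouts 1 to 4, against 0.60, 0.31, -1.23 and 1.08 in controls 1 to 4. Knockout 3 had the highest score and the highest Slc38a5 of the knockouts, and control 3 had the lowest score and the lowest Slc38a5 of the controls. Control 3 had a lower score than any knockout but a higher Slc38a5 value than knockouts 1, 2 and 4. Knockout 3 and control 1 had scores of 0.49 and 0.60, with Slc38a5 at 6.24 in that knockout and 7.79 in that control.

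All 16 markers of the exocrine pancreas had a change below 0, 0 passed, and all lay above the array median. Their scores overlapped between the groups (two-sided exact permutation p = 0.543, 0.740 after adjustment over 15 lists). The brightest was the elastase Cela3b, with 13.93 in the knockout and 14.10 in the control. Pnliprp2, a dimmer marker of the list, had 10.91 in the knockout and 11.92 in the control, a change of -1.01. Pnliprp2 is named because its profile lay near that of Slc38a5, as described below. With the pancreas score as a covariate the change of Slc38a5 was -1.09 with a standard error of 0.16, against 0.36 without it, and the adjusted p was 0.119 in limma. The score rests on bright markers, with mean levels up to 13.94 in control samples, where all values end at 14.83. Slc38a5 was far dimmer. The part of exocrine pancreas in the Slc38a5 values was not tested.

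Of the other marker lists, only the Brunner gland list had scores that did not overlap between the groups. Brunner glands are the mucous glands of the duodenum. Their score ran from -0.44 to 0.0022 in knockout samples and from 0.072 to 0.37 in control samples, with all 5 markers below 0 and 0 passing (two-sided exact permutation p = 0.0286, the smallest these groups can give, and 0.257 after adjustment over 15 lists). The islet score overlapped, from -0.51 to 0.49 in knockout samples and from -0.80 to 1.82 in control samples. The part of Brunner glands and islets in the Slc38a5 values was not tested.

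**Figure D4:**
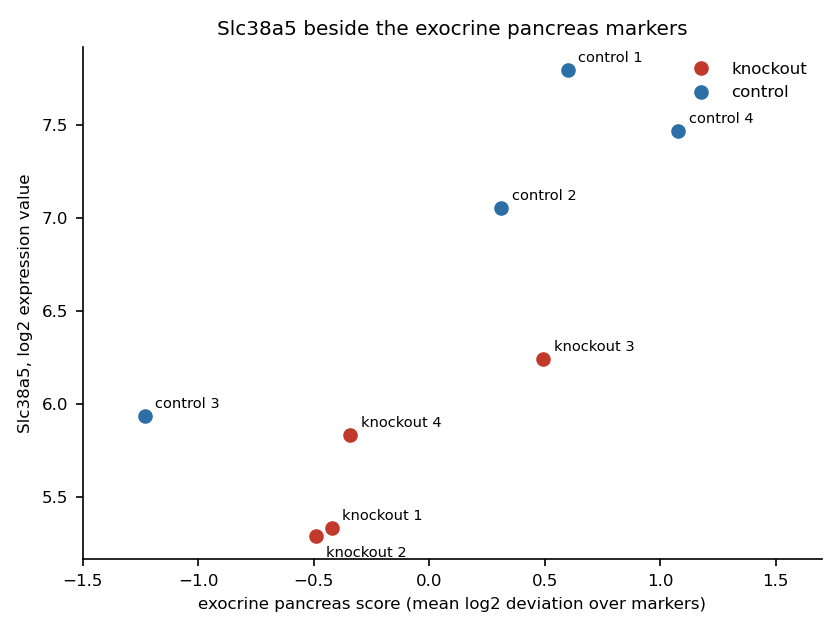
Log2 expression value of Slc38a5 (vertical axis) against the exocrine pancreas score (horizontal axis, mean log2 deviation over 16 markers), 1 labelled point a sample, knockout in red and control in blue. Control 3 has the lowest score, at -1.23, and a Slc38a5 value of 5.93, above knockouts 1, 2 and 4 and below knockout 3 at 6.24.

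The genes whose profile over the 8 samples came closest to that of Slc38a5 were sought among 18192 named genes, by the root mean square distance between log2 values centred on each gene's mean. The 5 nearest were Klk1b5, a kallikrein-related peptidase, at a distance of 0.17, Serpini2, a serine protease inhibitor, at 0.20, Cckar, a receptor of cholecystokinin, at 0.24, Erp27, a protein of the endoplasmic reticulum, at 0.25, and Pnliprp2, a lipase-related protein and a marker on the exocrine pancreas list, at 0.32. Klk1b5, Serpini2, Cckar and Erp27 were not on that short list, which does not mean that the pancreas lacks them. For comparison, the Slc38a5 profile itself had a root mean square size of 0.90. Klk1b5 read 4.81, 5.03, 5.78 and 5.51 in the knockouts, against 7.11, 6.42, 5.43 and 6.65 in the controls. As with Slc38a5, control 3 fell among the knockouts. The changes of the 5 lay between -1.20 and -1.01, their groups overlapped and their adjusted p-values lay between 0.561 and 0.676 in limma. These genes were chosen for their likeness to Slc38a5 in the same samples, so a similar change and sample order follow from the choice.

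The remaining carriers of amino acids and peptides lay on both sides of 0. All 33 other genes on a list chosen by function were measured, by 82 probe sets, of which 47 were above 0 and 35 below, with a median of 0.021 and 0 passing. The unadjusted p was under 0.05 for 5 of the 82, 3 higher and 2 lower, a share no larger than the 7.13% of all probe sets. The values named next are each from the probe set of the gene with the smallest p, and other probe sets of the same gene often differed. The smallest p belonged to Slc38a3, another system N glutamine carrier of the family, at -0.30 (adjusted p = 0.584 in limma). It read 5.96 to 6.22 in knockout samples and 6.25 to 6.60 in control samples, so that the groups did not overlap. Slc1a3, a glutamate carrier, had 0.36, and Slc15a2, a peptide carrier known mainly from kidney, had 0.39 with a mean of 4.55 in the knockout and 4.16 in the control, both under the array medians. The other 2 probe sets of Slc15a2 had 0.068 and 0.025, and the other 5 of Slc1a3 ran from -0.18 to 0.18. Slc1a4, a carrier of small neutral amino acids, had -0.21, Slc1a2, another glutamate carrier, 0.20, and Slc6a9, a glycine carrier, -0.19. The other 2 probe sets of Slc1a4 had 0.031 and 0.017, of opposite sign, and the other 4 of Slc1a2 ran from -0.22 to 0.017. The other probe set of Slc38a3 had -0.18 and that of Slc6a9 -0.15. Of these 82 probe sets, 36 had a mean under the array median, while 0 of the 16 did. The difference between the lists was not tested.

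Proteins that anchor or drive the carriers were measured for 5 of 7 genes, by 12 probe sets. Their change was above 0 in 11 of 12, with a median of 0.11, and 0 passed. The share above 0 was 50.0% of all probe sets and 58.4% of those whose mean reached the array median. Most of the 12 read Slc9a3r1 or Atp1b1, so they are not separate observations. Slc9a3r1, a scaffold protein under the brush border membrane, had 0.22, 0.14 and 0.094 on its 3 probe sets. On the one with 0.22 the groups did not overlap, with 12.95 to 13.05 in knockout samples and 12.69 to 12.93 in control samples (adjusted p = 0.599 in limma). Atp1b1, a subunit of the sodium pump that keeps sodium-coupled uptake going, had 0.12 on its brightest probe set, where the groups did not overlap either (adjusted p = 0.732 in limma). Its other 4 probe sets had 0.078, 0.070, 0.053 and 7.5e-04, and their groups overlapped. Slc9a3, the sodium-proton exchanger of the brush border, had 0.15 on its dimmer probe set and 0.14 on its brighter one. Cltrn, a partner that carries Slc6a19-type transporters to the membrane of kidney cells, had -0.25 with means of 3.99 in the knockout and 4.24 in the control, near the bottom of the scale.

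**Figure D5:**
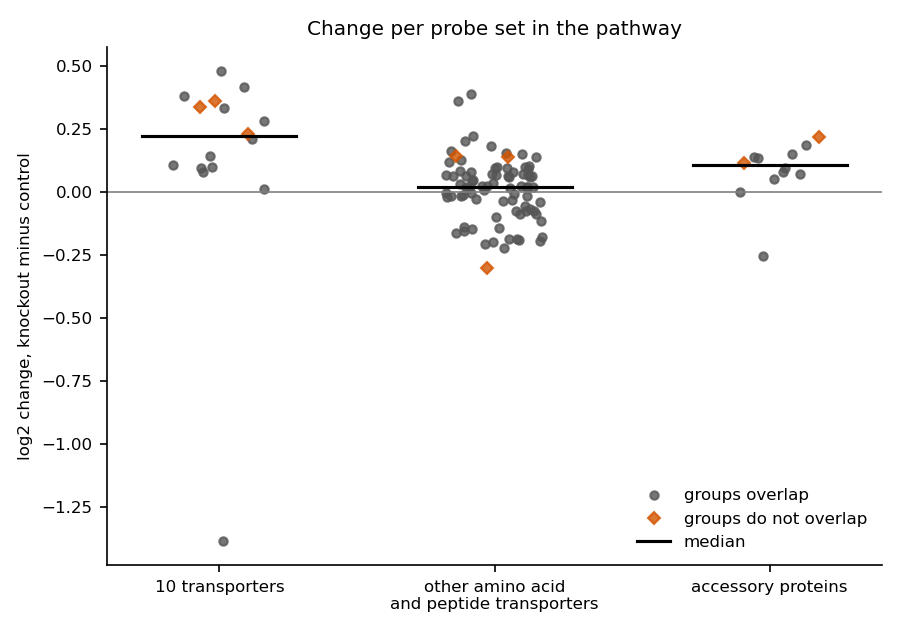
Log2 change, knockout minus control (vertical axis), of each probe set of the 10 transporters, of 33 other amino acid and peptide transporters and of the accessory proteins, with horizontal lines at the medians of 0.22, 0.021 and 0.11. Orange diamonds are probe sets whose groups do not overlap, 3 of 16, 3 of 82 and 2 of 12, and the lowest point is Slc38a5 at -1.39.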

How the data were processed

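Total RNA from 4 knockout and 4 control intestines was labelled by in vitro transcription and read on Affymetrix arrays, per the labels' protocols. The authors deposited 1 table of log2 expression values; the log2 scale was inferred from the values, which run from 2.55 to 14.83. Partek 6.4 is named, with no role, per the submitters' processing notes. The steps of background correction, summarisation and normalization were not given in the sources used here. Array medians lay between 5.23 and 5.27, so a general rise or fall of expression would not show in these values. The number of arrays limits the precision.

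Of 45101 probe sets, 64 array controls were left out. Gene names came from the platform annotation, with 34945 probe sets carrying 1 symbol. Groups were compared, knockout minus control, using limma 3.58.1 (lmFit, eBayes; R 4.3.3) over all 45037 probe sets, two-sided, with no filter, covariate or block. The code was tested on simulated data. Marker lists were scored with 1 probe set a gene, the one with the highest mean. The labels call the samples biological replicates.

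The transporters, the lists and the alternatives were chosen with earlier results of these data known, so no list gives independent support. Named with values were all 10 transporters, Pdx1, Vil1, up to 6 probe sets of each pathway list with the smallest p, the 5 profiles nearest to the largest change, and up to 3 bright markers of a list. Slc3a2 and Slc6a20b were added as partner and paralog after their values were seen. Plots used matplotlib 3.10.9 (Python 3.11.15).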

Additional observations from a re-analysis of the deposited data

Results flagged for a closer look

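Within each group, the highest and lowest sample of every transporter probe set were compared with the rest by Dixon's test, 32 groups of 4 samples in all, of which chance flags about 1 in 20. A single value was set apart: Slc15a1 in knockout 2, at 9.93 on the log2 scale, with the other 3 knockouts between 10.17 and 10.21. Without knockout 2 the change of Slc15a1 was 0.55 (adjusted p = 0.762 in limma), against 0.48 with it.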

How the results depend on the processing

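No transporter probe set passed under any of 20 alternative settings, of which the mean over a gene's probe sets applied to 4 genes, with adjusted p-values from 0.0658 to 0.999 in limma or the ordinary linear model. Of 308 values, 294 kept their sign. The other 14 changed sign, the largest being Slc6a20a without control 2. The brightest Slc1a1 probe set had -0.011 after repeated quantile normalization, -0.093 with epithelial genes subtracted and -0.0052 with the pancreas covariate, and -0.017 to 0.064 with 1 sample left out. With epithelial genes subtracted its other probe sets had -0.013 and -0.0090, and Slc6a20a had -0.029. With 1 sample left out, Slc6a20a ran from -0.22 to 0.30 and Slc7a8 from -0.0018 to 0.23. Without control 2 and knockout 3 together Slc7a8 had -0.0044. Over all probe sets 19 changed. The ordinary linear model, which does not pool the variance, called 2; the other settings called 13 to 24. With a replicate block the count was 24, and 0 transporters passed. Same-numbered samples did not deviate together (correlations of -0.18 to 0.076 over probe sets, and 0 of 4 knockouts closest to its own number), so the numbers were not treated as pairs. The largest correlation, 0.60, was between knockout 3 and control 2. The labels do not say whether same-numbered samples are brothers, so pairing by litter was not tested. Probe sets with all values at the floor of 5 were left out of that setting. Signal over background is unknown, so changes of dim probe sets may be understated.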
